A study of Arabidopsis thaliana with 8 samples.

Results

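The transcripts described here are those of 30 Arabidopsis thaliana genes that make, break down, transmit or answer abscisic acid (ABA), the hormone of drought, together with the classical cold and drought response genes. They were chosen by locus, without the ABA receptors, and all 30 were present among the 30361 features of the array, with 1 feature each. The series compares leaves of the wild type (WT, label Wild_Type) with leaves of a transgenic line (label DGTT2_transgenic, line 57) that carries the Chlamydomonas gene DGTT2, whose product makes storage oil from diacylglycerol, with 4 biologically independent RNA samples per genotype. Plants of both genotypes were 6 weeks old and were grown on soil under a day of 16 h and a night of 8 h at 22 C, and no drought, cold or hormone treatment is named in the labels. All DGTT2 samples are of 1 line, so effects of the transgene and of anything else that sets this line apart cannot be told apart. The sources used here do not give the promoter driving the transgene or the accession of the plants, and the algal transcript was not measured. Replicates are named here by the numbers in their labels, and values are RMA log2 values unless another unit is given.

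ABA is made from carotenoids through cleavage by NCED enzymes and oxidation in the cytosol, and it is removed through hydroxylation by cytochromes of the CYP707A family. In its absence, phosphatases of the PP2C family hold SnRK2 kinases such as OST1 inactive. When receptors bind ABA they block the phosphatases, the kinases become active, and bZIP factors of the ABF and ABI5 group are phosphorylated and turn on protective genes. Cold reaches many of the same protective genes through CBF factors, and the PP2C genes are themselves induced by ABA, which makes them common reporters of the state of the pathway in leaves.

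None of the ABA, drought and cold genes passed the test between the DGTT2 line and WT. At an adjusted p under 0.05 (limma, Benjamini-Hochberg over all features), 0 of the 30 genes were called different, against 0.0725% of all features, and the smallest adjusted p among them was 0.255. KIN1, KIN2 and HAI1 had an unadjusted p under 0.05 (limma), which is 10% of the 30 genes against 10.5% of all features. Irrespective of direction the share was near the background. All 3 were lower in DGTT2, so that in this direction 10% of the genes stood against 5.96% of all features. The genotypes did not overlap in 3 genes, KIN1, RAB18 and HAI1, which is 10% of the genes against 5.64% of all features in either direction. These 3 were lower in DGTT2, and in this direction the share of all features was 3.32%. Of the 30 genes, 23 had a mean of at most 15 and over 1 above the median of pseudogene features (5.95). KIN1 and KIN2 are outside this set. Among these 23, 1 had an unadjusted p under 0.05 (4.35%, limma) and 2 did not overlap (8.70%), all lower in DGTT2. The shares of all features were not limited in this way. The mean was lower in DGTT2 in 18 of the 30 genes (60.0%, against 50.3% of all features), with a median log2 difference, DGTT2 minus WT, of -0.03, against -0.001 over all features. With each array centred on the common median, 23 of the 30 means were lower and the median was -0.07, against -0.04 over all features. Centring thus lowered the median of all features too, so this count cannot be set against the 50.3%. Slide 1 held replicates 1 and 3 of each genotype, and slide 2 held replicates 2 and 4. On slide 1 alone 17 of the 30 means were lower with a median of -0.04. On slide 2 alone 23 were lower with a median of -0.15, against -0.006 over all features there. The share of all features with a lower mean is not given for these settings.

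The intervals bound how large a difference on the array scale could be. The 95% interval of the difference lay within 2-fold for 29 of the 30 genes (91.9% of all features), CYP707A3 being the exception. It lay within 1.5-fold for 24 of the 30 genes (20739 of the 30361 features). For the 5 genes with a mean over 15, and for KIN1 and HAI3 at low level, the transcript difference may exceed these bounds, which was not measured. The plot of differences with their intervals shows this for each gene.

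**Figure D1:**
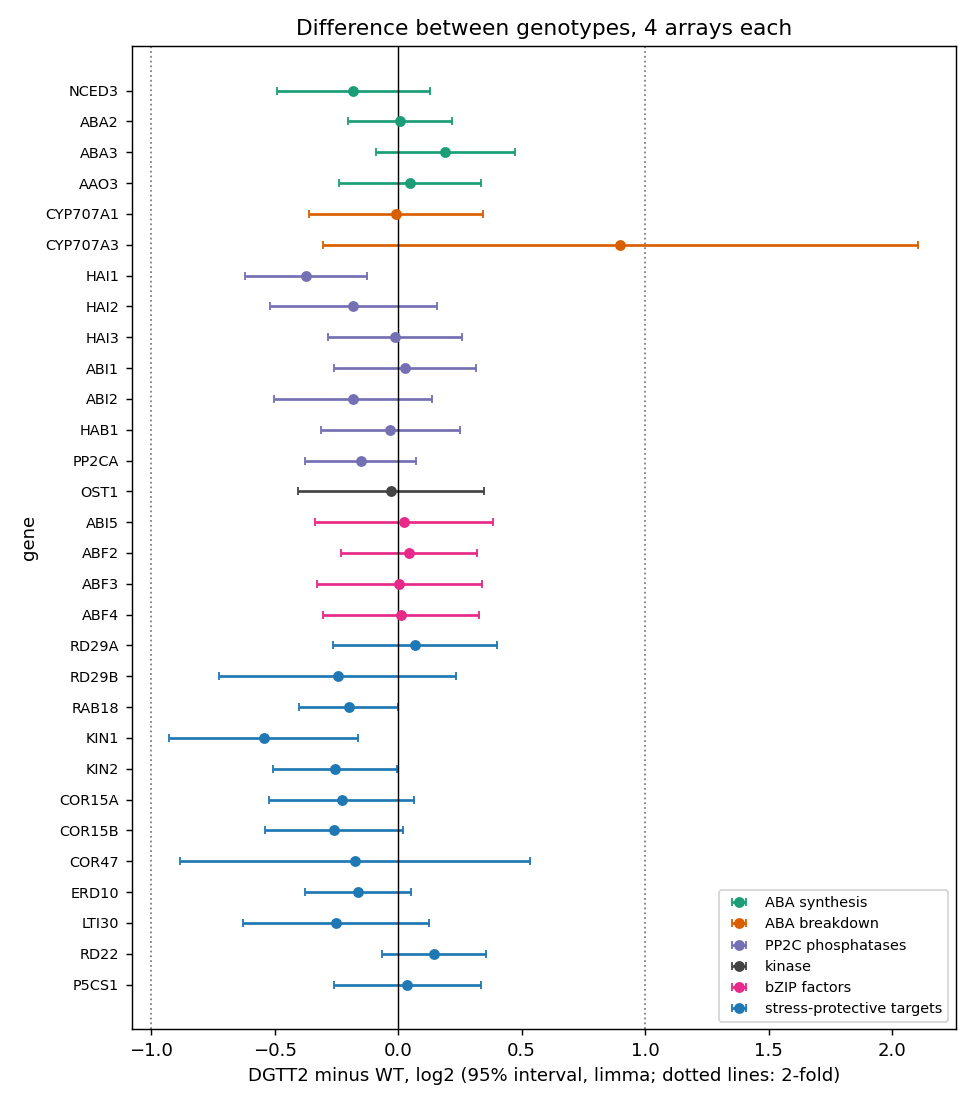
Difference between genotypes (DGTT2 minus WT, log2, horizontal axis) for each of the 30 genes, coloured by role. Points are estimates from 4 arrays per genotype, bars are 95% intervals from limma, and dotted lines mark 2-fold. Of the 30 intervals, 29 lie between the dotted lines, and that of CYP707A3 reaches 2.11.

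The 8 arrays correlated at 0.988 to 0.995 across features, and 22 features in all were called different. The 4 markers of leaf mesophyll lay between 14.78 and 15.99, while the 3 seed markers lay between 5.30 and 7.03, around the median level of 5.95 of the 4414 pseudogene features. Markers of root averaged between 6.28 and 7.47 per array, with PYK10, a beta-glucosidase of root and hypocotyl, ranging from 7.88 to 11.52 without regard to genotype. The 5 guard cell markers matter because OST1 and several PP2C genes are strongly used in these cells. These markers averaged between 11.43 and 11.57 in DGTT2 and between 11.35 and 11.53 in WT. Of the 5 markers, 0 were called, and 1 had an unadjusted p under 0.05 (20%, against 10.5% of all features, limma). They did not move together. MYB60, a guard cell transcription factor, was higher in DGTT2 by 0.57 (SE 0.14, adjusted p = 0.196, limma) without overlap. FAMA, a factor of guard cell differentiation, was at -0.13 (SE 0.08, adjusted p = 0.639, limma), also without overlap. The spread of FAMA was above that of only 0.1% of features, so a small difference sufficed to part its genotypes. HT1, KAT1 and SLAC1 were at -0.26, -0.17 and 0.07 with overlap. The genotypes thus did not overlap in 2 of the 5 (40%, against 5.64% of all features). The part of guard cells in the results below was not tested. In whole leaves, fewer cells of a type and less RNA per cell cannot be told apart. On both slides the WT samples took array positions 1 and 2 and the DGTT2 samples 3 and 4, so genotype and array position cannot be told apart either.

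ABA synthesis was measured through 4 genes, and 0 of them were called (0 at an unadjusted p under 0.05, limma). NCED3 (AT3G14440) encodes the cleavage enzyme that limits ABA synthesis in drought. Its values were 12.53, 12.17, 12.60 and 12.79 in DGTT2 replicates 1 to 4 and 12.84, 12.74, 12.61 and 12.62 in WT replicates 1 to 4. The genotypes overlapped, with DGTT2 replicate 2 below all other arrays, and the log2 difference was -0.18 (SE 0.14, adjusted p = 0.722, limma). ABA2 (AT1G52340), the dehydrogenase that makes abscisic aldehyde, had values from 13.15 to 13.25 in DGTT2 and from 13.03 to 13.32 in WT. Its spread was small (SD 0.04 in DGTT2 and 0.12 in WT), and the interval of its difference ran from -0.20 to 0.22. AAO3 (AT2G27150), the aldehyde oxidase of the last step, differed by 0.05 (interval -0.24 to 0.34). ABA3 (AT1G16540), which sulfurates the molybdenum cofactor that AAO3 needs, differed by 0.19 (interval -0.09 to 0.47).

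ABA breakdown was measured through CYP707A1 and CYP707A3, both ABA 8'-hydroxylases. CYP707A1 (AT4G19230) was at 10.20, 9.94, 10.25 and 10.50 in DGTT2 replicates 1 to 4 and at 10.20, 10.54, 9.95 and 10.23 in WT replicates 1 to 4. Both genotypes spanned nearly the same range, and the difference was -0.01 (SE 0.16, adjusted p = 0.993, limma). CYP707A3 (AT5G45340), the form known for its rapid rise on rehydration, had the largest difference of the 30 genes and also the largest spread.

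CYP707A3 was at 10.44, 10.49, 11.05 and 12.34 in DGTT2 replicates 1 to 4. In WT replicates 1 to 4 it was at 10.05, 11.59, 9.57 and 9.51. The genotypes overlapped, since WT replicate 2 was higher than 3 of the DGTT2 arrays, and the ranges within a genotype exceeded the difference between them. The log2 difference was 0.90 (SE 0.53, 95% interval -0.30 to 2.11, adjusted p = 0.618, limma), a ratio of 1.87. The pooled SD of 0.93 was above that of 99.2% of all features. The difference was 0.93 on slide 1 and 0.87 on slide 2. It was 0.48 without DGTT2 replicate 4 and 1.37 without WT replicate 2 (adjusted p = 0.228), so its size rests on single arrays.

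The arrays with high and low CYP707A3 were those with high and low rapid stress markers. These 8 genes of the early response to touch, wounding and handling (TCH2, TCH3, TCH4, WRKY40, WRKY33, ERF6, ZAT10 and WRKY53) had mean offsets from their WT mean of 0.42, 0.41, 0.49 and 1.09 in DGTT2 replicates 1 to 4 and of 0.25, 0.98, -0.57 and -0.66 in WT replicates 1 to 4. DGTT2 replicate 4, WT replicate 2 and DGTT2 replicate 3 ranked 1, 2 and 3 of the 8 arrays in both measures, and WT replicates 1, 3 and 4 ranked 6, 7 and 8 in both. All 8 markers had a higher mean in DGTT2, as did 15102 of the 30361 features. In the mean offset, WT replicate 2 was above DGTT2 replicates 1, 2 and 3. Of the 8 markers, 0 were called, and 1 had an unadjusted p under 0.05 (12.5%, against 10.5% of all features, limma). Their part in the CYP707A3 difference was not tested.

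**Figure D2:**
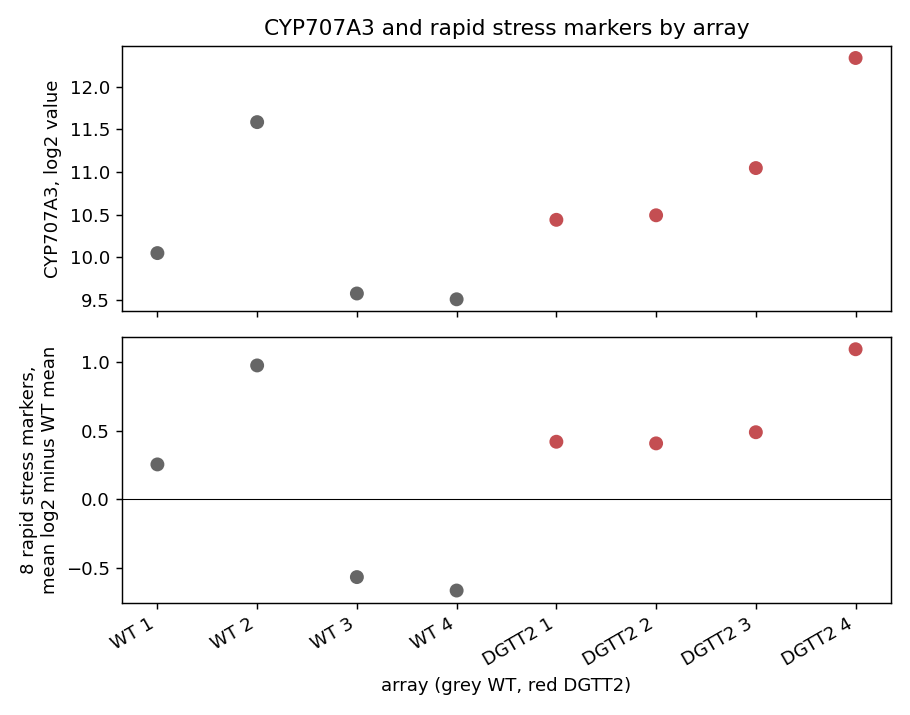
CYP707A3 (upper panel, log2 value) and the mean of 8 rapid stress markers (lower panel, log2 value minus the WT mean of each gene) in each array, WT in grey and DGTT2 in red. DGTT2 replicate 4 is highest in both panels (12.34 and 1.09) and WT replicate 4 lowest (9.51 and -0.66).

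The PP2C phosphatases, which hold the pathway off, had a lower mean in DGTT2 in 6 of 7 genes (85.7%, against 50.3% of all features), with a median of -0.15. Among the 6, HAB1 (-0.03) and HAI3 (-0.01) were near 0 and turned direction when single arrays were left out. Of the 7, 0 were called, and 1 had an unadjusted p under 0.05 (14.3%, against 10.5% of all features, limma). HAI1 (AT5G59220), a strongly ABA-induced phosphatase also known as a senescence-associated gene, had the smallest p of the 30 genes. It was at 10.02, 10.09, 10.03 and 10.12 in DGTT2 replicates 1 to 4 and at 10.50, 10.22, 10.38 and 10.66 in WT replicates 1 to 4. Every DGTT2 array was below every WT array, and the DGTT2 arrays were closely spaced (SD 0.05) while the WT arrays were not (SD 0.18). The log2 difference of -0.37 (SE 0.11, 95% interval -0.62 to -0.12) put DGTT2 at 77.3% of the WT level, and it did not pass over all features (adjusted p = 0.255, limma). On the slides taken apart it was -0.41 and -0.33.

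The other ABA-induced phosphatases did not separate the genotypes. HAI2 (AT1G07430) was at 12.99, 12.26, 12.62 and 12.81 in DGTT2 replicates 1 to 4, against 12.85, 12.80, 12.91 and 12.85 in WT. DGTT2 replicate 2 was the lowest array and DGTT2 replicate 1 the highest, so the WT range lay inside that of DGTT2 (difference -0.18, SE 0.15, adjusted p = 0.753, limma). HAI3 (AT2G29380) lay between 5.21 and 5.64 in all arrays, below the pseudogene median of 5.95, so a level above background was not shown. PP2CA (AT3G11410), a major phosphatase of guard cells and seeds, was at 14.74 ± 0.13 in DGTT2 and 14.89 ± 0.08 in WT (SD, n = 4 each; adjusted p = 0.661, limma). The genotypes overlapped, with a DGTT2 high of 14.85 and a WT low of 14.78.

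ABI1, ABI2 and HAB1 are related phosphatases that hold back the ABA response. ABI1 (AT4G26080) differed by 0.03 (interval -0.26 to 0.31), and its 4 DGTT2 arrays, from 13.22 to 13.30, fell inside the WT range of 12.94 to 13.44. ABI2 (AT5G57050) differed by -0.18 (interval -0.50 to 0.14) and HAB1 (AT1G72770) by -0.03 (interval -0.31 to 0.25).

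OST1 (AT4G33950), the SnRK2 kinase that closes stomata in response to ABA, was at 11.94, 12.06, 12.30 and 11.56 in DGTT2 replicates 1 to 4. In WT replicates 1 to 4 it was at 12.20, 11.79, 11.88 and 12.11. The DGTT2 arrays held both the highest and the lowest value, and the difference was -0.03 (SE 0.17, interval -0.40 to 0.35, adjusted p = 0.976, limma).

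The bZIP factors that the kinases activate showed small differences, from 0.005 to 0.04 on the log2 scale, and 0 of 4 were called (0 at an unadjusted p under 0.05, limma). ABF2 (AT1G45249), ABF3 (AT4G34000) and ABF4 (AT3G19290), the main ABRE-binding factors of vegetative tissue, differed by 0.04 (interval -0.23 to 0.32), 0.005 (interval -0.33 to 0.34) and 0.01 (interval -0.30 to 0.33). ABI5 (AT2G36270), the related factor of seeds and seedlings, was at 8.95 ± 0.19 in DGTT2 and 8.92 ± 0.29 in WT (SD, n = 4 each). In all 4 the ranges of the genotypes overlapped. The 4 differences had opposite signs on the slides taken apart, and those of ABI5, ABF3 and ABF4 turned negative when arrays were centred on their medians, so no direction is given for them.

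**Figure D3:**
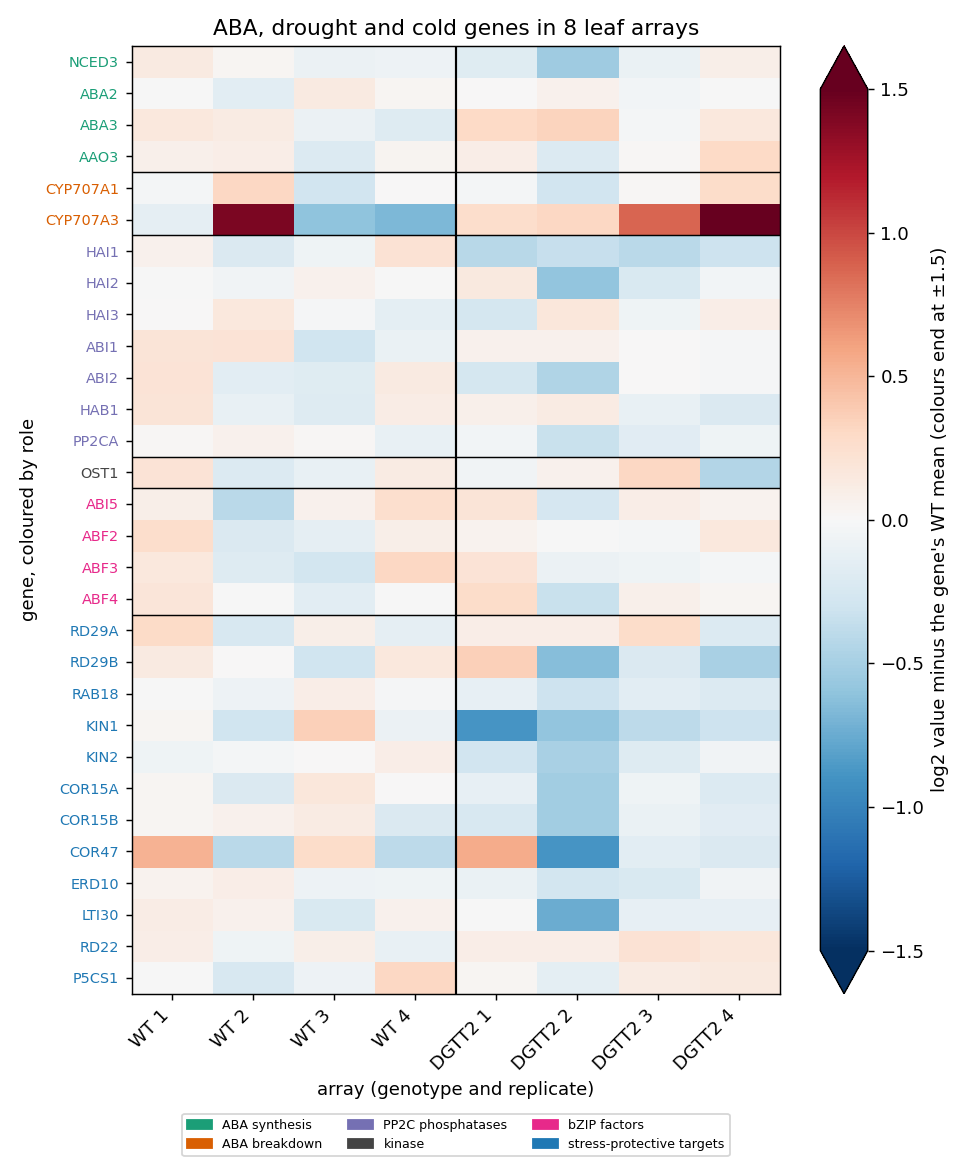
Log2 value of each gene (rows, grouped and coloured by role) minus its WT mean in each of the 8 arrays (columns), with red above and blue below that mean. CYP707A3 in DGTT2 replicate 4 lies beyond the end of the colour scale, and the column of DGTT2 replicate 2 is blue in most protective genes.

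The protective genes at the end of the pathway had a lower mean in DGTT2 in 9 of 12 genes (75%, against 50.3% of all features), with a median of -0.21. Of the 12, 0 were called, and 2 had an unadjusted p under 0.05 (16.7%, against 10.5% of all features, limma). DGTT2 replicate 2 was the lowest of the 8 arrays in 8 of the 12, and without it the median was -0.12, with 8 of 12 means lower. Of the 12 genes, 5 had a mean over 15 (RD29A, KIN2, COR15A, COR15B and RD22), near the upper end of the scale at 15.99, where differences may be compressed, which was not measured.

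Several of these genes are direct neighbours on the chromosome, with no protein-coding gene between them in the RefSeq table, and encode related proteins. The pairs are KIN1 and KIN2, COR15A and COR15B, COR47 and ERD10, and RD29A and RD29B. The sources used here do not describe the probes behind each feature, so signal shared between members of a pair cannot be told apart from their own.

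KIN1 (AT5G15960) and KIN2 (AT5G15970) encode small hydrophilic proteins induced by cold and ABA. KIN1 was at 5.71, 6.01, 6.20 and 6.29 in DGTT2 replicates 1 to 4 and at 6.63, 6.31, 6.95 and 6.51 in WT replicates 1 to 4. The genotypes did not overlap, by a margin of 6.29 against 6.31, and the log2 difference was -0.54 (SE 0.17, adjusted p = 0.28, limma). Its values came near the pseudogene median of 5.95, so no fold is given, and the difference was -0.83 on slide 1 and -0.26 on slide 2. KIN2 was at 15.07, 14.87, 15.17 and 15.31 in DGTT2 and at 15.29, 15.33, 15.36 and 15.46 in WT. Here 1 DGTT2 array, replicate 4, was above the lowest WT array, and the difference of -0.26 (SE 0.11, adjusted p = 0.461, limma) put DGTT2 at 83.7% of the WT level.

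RAB18 (AT5G66400), a dehydrin used as a marker of ABA response, was at 13.34, 13.16, 13.30 and 13.26 in DGTT2 replicates 1 to 4. In WT replicates 1 to 4 it was at 13.46, 13.39, 13.56 and 13.45. All DGTT2 arrays were below all WT arrays, and the spread was among the smallest on the array, above that of 3.0% of features. The difference was -0.20 (SE 0.09, 95% interval -0.40 to 0.001, adjusted p = 0.481, limma), or 87.1% of the WT level, and it was -0.19 on slide 1 and -0.21 on slide 2.

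**Figure D4:**
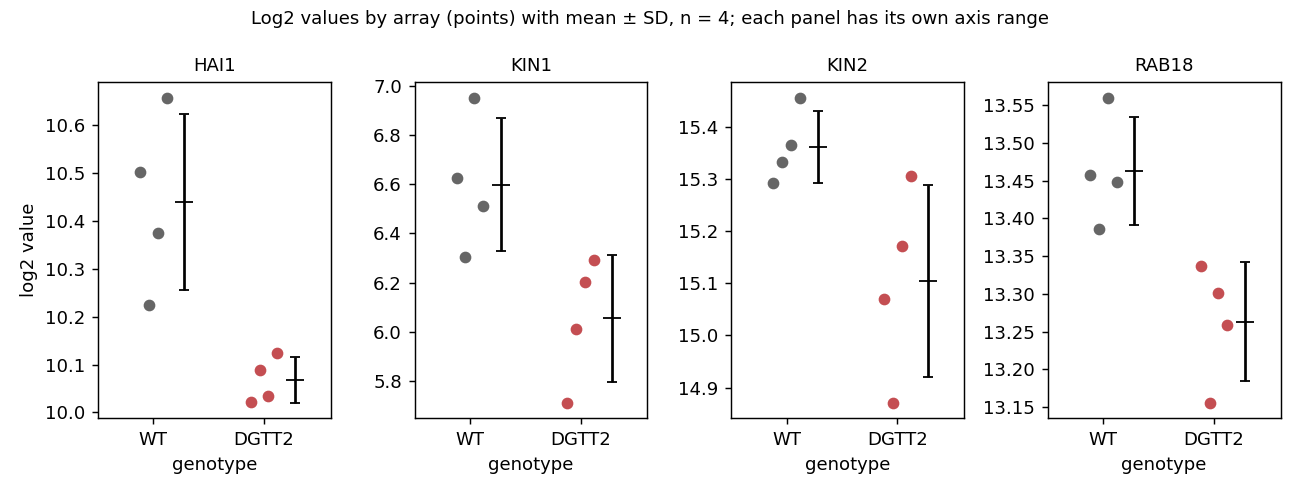
Log2 values of HAI1, KIN1, KIN2 and RAB18 in each array (points) with mean ± SD beside them (n = 4 per genotype), on a separate axis range per panel. The genotypes do not overlap in HAI1, KIN1 and RAB18, and 1 DGTT2 array reaches the WT range in KIN2.

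COR15A (AT2G42540) and COR15B (AT2G42530) encode chloroplast proteins that protect membranes during freezing. COR15A was at 15.04 ± 0.20 in DGTT2 and 15.26 ± 0.16 in WT, and COR15B at 15.23 ± 0.19 and 15.48 ± 0.15 (SD, n = 4 each). Both were lowest in DGTT2 replicate 2, at 14.74 and 14.96. Neither passed, with differences of -0.23 (adjusted p = 0.596) and -0.26 (adjusted p = 0.52, limma).

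COR47 (AT1G20440), ERD10 (AT1G20450) and LTI30 (AT3G50970) are dehydrins of cold and drought. COR47 was at 11.95, 10.50, 11.23 and 11.17 in DGTT2 replicates 1 to 4 and at 11.91, 10.98, 11.65 and 11.00 in WT. Its spread was above that of 95.8% of features, and replicate 1 was highest in both genotypes (difference -0.17, SE 0.32, adjusted p = 0.907, limma). ERD10, its neighbour, varied little, between 12.81 and 13.17 over all arrays, and differed by -0.16 (interval -0.38 to 0.05). LTI30 was at 13.93, 13.20, 13.81 and 13.82 in DGTT2 and at 14.05, 14.00, 13.71 and 14.00 in WT, so that 1 array in each genotype lay below the rest. Its difference was -0.25 (SE 0.17, adjusted p = 0.671, limma), with -0.01 on slide 1 and -0.49 on slide 2.

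RD29A (AT5G52310) is the standard reporter of combined cold, drought and salt response, and RD29B (AT5G52300) that of ABA response. RD29A, at 15.70 ± 0.20 in DGTT2 and 15.64 ± 0.24 in WT (SD, n = 4 each), differed by 0.07 (interval -0.26 to 0.40). RD29B was at 9.79, 8.79, 9.22 and 8.94 in DGTT2 replicates 1 to 4 and at 9.57, 9.44, 9.13 and 9.59 in WT. DGTT2 replicate 1 was the highest array and DGTT2 replicate 2 the lowest, and the difference of -0.24 (SE 0.21, adjusted p = 0.766, limma) was 0.16 on slide 1 and -0.65 on slide 2. RD22 (AT5G25610), a drought gene reached through MYC and MYB factors, differed by 0.15 (interval -0.06 to 0.36). P5CS1 (AT2G39800), the enzyme that limits proline synthesis, differed by 0.04 (interval -0.26 to 0.34).

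Across the 30 genes the arrays did not contribute evenly. DGTT2 replicate 2 held the lowest of the 8 values in 14 genes (46.7%, against 11.0% of all features). These were 8 of the protective genes, 3 of the phosphatases and 1 gene each of synthesis, breakdown and the bZIP factors. No other array was lowest in more than 5. The mean of the protective genes in this array was -0.41 from the WT mean, against -0.05, -0.08 and -0.14 in DGTT2 replicates 1, 3 and 4. Without it 2 of the 30 genes (KIN1 and HAI1) had an unadjusted p under 0.05, 17 had a lower mean in DGTT2, and the median was -0.05. The median level of this array over all features was 10.23, within the range of 10.19 to 10.28 of the 8 arrays. Its rapid stress markers were at 0.41, within the WT range of -0.66 to 0.98. It was 1 of the 2 DGTT2 arrays on slide 2, so the differences given for slide 2 alone are not separate from it.

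The wider pathway was followed through 54 other genes in 5 lists. Of these 0 were called (limma), 6 had an unadjusted p under 0.05 (11.1%, against 10.5% of all features), 3 higher and 3 lower in DGTT2, and their median difference was 0.03. Their intervals lay within 2-fold in 47 of 54, against 27898 of the 30361 features (91.9%).

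The ABA receptor genes followed here were PYR1 and PYL1 to PYL9. Among these 10, 3 had an unadjusted p under 0.05 (30%, against 10.5% of all features, limma), 2 higher and 1 lower in DGTT2. The genotypes did not overlap in 1 of the 10 (10%, against 5.64% of all features). PYL6 was at 7.92, 7.96, 8.07 and 7.44 in DGTT2 replicates 1 to 4 and at 7.16, 6.72, 6.98 and 6.66 in WT. All DGTT2 arrays were above all WT arrays, and the difference of 0.97 (SE 0.17) missed the threshold (adjusted p = 0.0924, limma), but passed in the fit with slide as a fixed block (adjusted p = 0.0423). PYL5 differed by 0.77 (SE 0.24, adjusted p = 0.274) and PYL3 by -0.67 (SE 0.25, adjusted p = 0.37, limma).

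Of the 10 other genes of ABA synthesis, breakdown and transport, 0 had an unadjusted p under 0.05 (limma). The 3 of smallest p were NCED9 at 0.36 and NCED5 at 0.34, both minor cleavage enzymes best known from seeds, and ABA1, the zeaxanthin epoxidase, at 0.14. Of the 8 other signalling genes, ABI4, a factor of seedling sugar and ABA response, was at -0.53 (SE 0.23, adjusted p = 0.457, limma). The seed phosphatase gene AHG1 was at -0.25 and the bZIP gene AREB3 at -0.12. The mean levels of ABI4 (6.22 in DGTT2 and 6.75 in WT) and NCED9 (6.93 and 6.57) came near the pseudogene median of 5.95.

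Regulators of cold and dehydration had 0 of 10 genes at an unadjusted p under 0.05 (limma). CBF2, one of the cold-induced factors that turn on the COR genes, was at 0.23 (SE 0.18), ICE1, an upstream regulator of the CBF genes, at -0.09 (SE 0.09), and ZAT12, a zinc finger factor of rapid stress responses, at 0.67 (SE 0.59). ZAT12 ran from 8.83 to 11.77 in WT alone. Among 16 other targets of cold and drought, COR27, a cold-induced gene that is also under clock control, was at 12.17 ± 0.17 in DGTT2 and 12.73 ± 0.21 in WT (SD, n = 4 each). Its genotypes did not overlap, and the difference of -0.56 (SE 0.13) did not pass (adjusted p = 0.177, limma). COR27 was the only 1 of the 16 without overlap (6.25%, against 5.64% of all features). Of the 16, 2 had an unadjusted p under 0.05 (12.5%, against 10.5% of all features, limma). RD20, a caleosin of drought response, was at 0.32 (SE 0.13, adjusted p = 0.429) and ERD7, a dehydration-induced gene, at -0.21 (SE 0.13, adjusted p = 0.638, limma).

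**Figure D5:**
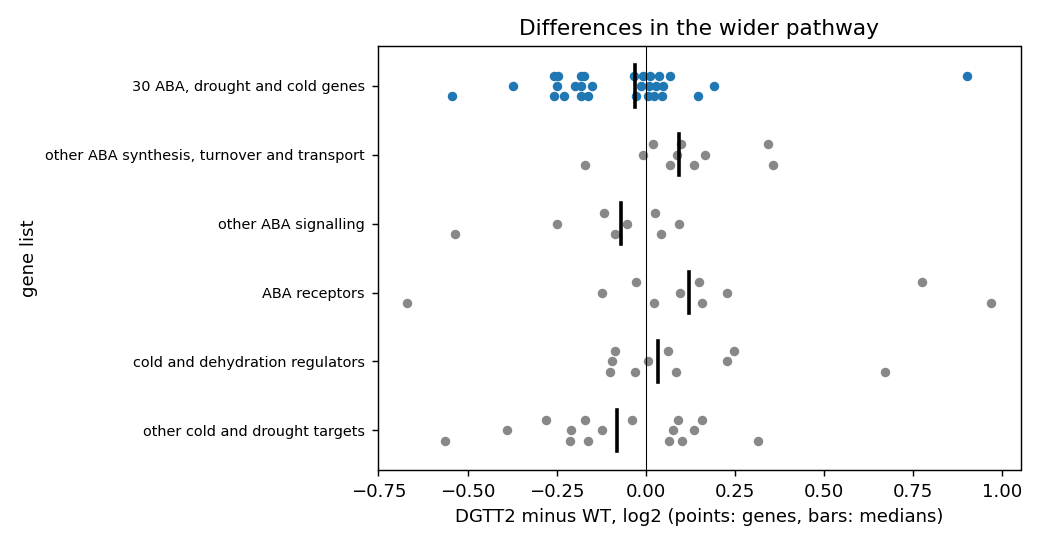
Difference between genotypes (DGTT2 minus WT, log2) for the 30 genes described here (blue) and for 5 lists of other pathway genes (grey), with a point per gene and a bar at each median. The medians lie between -0.08 and 0.12, and the points farthest to the right are PYL6 (0.97), CYP707A3 (0.90) and PYL5 (0.77).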

How the data were processed

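The values are log2 expression values of 8 one-colour NimbleGen arrays, which the authors deposited as 1 table. The labels name the platform both as a NimbleGen 4-plex array and as the ATH1 array, a name used for another maker's chip; NimbleGen is given here because the labels also carry a 4-plex identifier for each sample, taken as the slide, with the last characters of the description taken as the array position. Per the submitters' processing notes, the values were made with RMA and Partek. Their settings, the genome build and the probes of each feature are not stated in the sources used here, so no coordinates are printed. That the scale is log2 follows from their range (4.20 to 15.99). Because RMA makes array distributions nearly equal, a change common to most genes would be hidden. With 4 arrays per genotype, the number of arrays limits precision. No detection calls were used here.

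The deposited values of all features were fitted in limma 3.58.1 under R 4.3.3 (lmFit, eBayes, genotype as the only term, two-sided), with Benjamini-Hochberg adjustment over 30361 features, a call at an adjusted p under 0.05 and 95% intervals. The fit was tested on simulated data. The alternatives tried were centring on array medians, a second quantile normalization, leaving out features below the lower quartile of level, slide as a fixed or random block (statmod 1.5.0), each slide alone, the replicate number as a block, trended robust eBayes, a threshold of 0.10, and each array left out in turn.

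Features were matched to members by locus; 28 of 30 names are the symbols that RefSeq's TAIR10.1 table gives, and RD29A and RD29B are listed there as LTI78 and LTI65. The table gave biotypes and neighbours. Members and lists were chosen with earlier results of these data known. The naming rule took all members and the 3 genes of smallest p in each of the 5 pathway lists; PYK10 and the guard cell markers were named after their values were seen. A planned description of promoter motifs was not made, and promoter sequences were not used here.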

Additional observations from a re-analysis of the deposited data

Results flagged for a closer look

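Of the 60 sets of 4 arrays formed by the 30 genes in each genotype, 2 held an array set apart from the other 3 by Dixon's test at its 95% critical value, where chance gives about 1 in 20. Both concern the dehydrin gene LTI30. In DGTT2 replicate 2 it was at 13.20, against 13.81 in the nearest other DGTT2 array. In WT replicate 3 it was at 13.71, against 14.00 in the nearest other WT array.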

How the results depend on the processing

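As reported and in each of the 18 alternatives, 0 of the 30 genes were called, and their smallest adjusted p over the fitted alternatives was 0.145 (HAI1 without WT replicate 2). The number with an unadjusted p under 0.05 was 3, and became 5 with arrays centred on their medians, 6 with eBayes trend and robust, and 1 on slide 2 alone; with 1 array left out it ran from 2 to 4. Same-numbered samples of the genotypes did not deviate together (correlations of deviations from -0.027 to 0.20), so the numbers were not taken as pairs; with the replicate block it was 3 and the median difference -0.03, and no call among the 30 changed. Without 1 array the median ran from -0.10 to -0.005, and on slide 2 alone it was -0.15. Of the 54 pathway genes 0 were called as reported, 1 with slide as a fixed block and 1 at an adjusted p under 0.10, PYL6 in both; on slide 1 alone 3 had an unadjusted p under 0.05 in place of 6. Over all features the number called was 22, and between 5 and 39 without 1 array, 69 (0.227%) with slide as a fixed block, 46 with trend and robust, 13 with centring, 3 with the replicate block and 1 on each slide alone.

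Direction turned with the setting in the genes given here, among them RD29B and COR47, whose reported differences were -0.24 (SE 0.21) and -0.17 (SE 0.32). On slide 1 alone it turned for RD29B (0.16), ABA2 (-0.081), CYP707A1 (0.15), OST1 (0.085) and ABF2 (-0.053). On slide 2 alone it turned for P5CS1 (-0.039), AAO3 (-0.023), HAI3 (0.13), ABI1 (-0.029), ABI5 (-0.020), ABF3 (-0.12) and ABF4 (-0.14). With centring it turned for ABA2 (-0.030), ABI1 (-0.010), ABI5 (-0.014), ABF3 (-0.033) and ABF4 (-0.025), and with a second quantile normalization for HAI3 (0.016) and ABI5 (-0.043). Leaving out 1 array turned it in 14 genes, with ranges of -0.013 to 0.16 for RD29A, -0.42 to 0.062 for COR47, -0.040 to 0.14 for P5CS1, -0.046 to 0.053 for ABA2, -0.032 to 0.13 for AAO3, -0.10 to 0.093 for CYP707A1, -0.073 to 0.070 for HAI3, -0.072 to 0.096 for ABI1, -0.096 to 0.032 for HAB1, -0.14 to 0.11 for OST1, -0.11 to 0.12 for ABI5, -0.029 to 0.13 for ABF2, -0.087 to 0.11 for ABF3 and -0.074 to 0.13 for ABF4. None of these genes was called in any of these settings, and the cause was not tested. HAI1, KIN1, KIN2 and RAB18 were lower in DGTT2 in every alternative that gave them a value. For HAI1, KIN1 and RAB18 the genotypes did not overlap, so leaving out an array or taking a slide alone could not turn the direction. The block fits returned the same differences as the main fit. Their steady direction is therefore no separate evidence. KIN1 and HAI3 had no value without features below the lower quartile.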

Other observations

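GOLS2 and GOLS3, galactinol synthase genes of drought and cold response, were named after their values were seen. GOLS2 was at 9.33 in DGTT2 replicate 2, against 10.37 to 10.98 in the other 7 arrays. GOLS3 was at 10.61 in that array, against 11.56 to 12.18 in the others. Without DGTT2 replicate 2 the difference between genotypes went from -0.17 to 0.19 for GOLS2 and from -0.39 to -0.08 for GOLS3. Of the 54 pathway genes, 10 (18.5%) were lowest in this array, against 11.0% of all features.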
